A study of Caenorhabditis elegans with 12 samples.

Results

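The 910 sites of the X Chromosome described here are merged intervals, made by pooling the ChIP-seq peaks of 6 chromatin proteins and joining peaks that share at least 1 bp. They were taken from 5870 such intervals in the whole genome, of which 4960 lie on the 5 autosomes and serve for comparison. All 1168 peaks on X fall into one of the 910 intervals, so no site was left out. The proteins were immunoprecipitated from wild-type N2 Caenorhabditis elegans at the L3 larval stage, in 2 replicates each (12 samples, whole organisms, no mutant and no treatment). The deposited data are 1 peak list per protein, combined over both replicates by the authors, with chromosome, start and end in the ce10 assembly and no peak height. The depth behind a peak is therefore unknown, no error between replicates can be given, and a missing peak means only that none was listed. Whole larvae mix all tissues, so a site bound in few cells and a site bound weakly in many cannot be told apart. The peaks of BLMP-1 were called with MACS2 and those of the others with YAPC, so caller and protein cannot be told apart.

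The 6 proteins act at different steps of chromatin regulation. BLMP-1 is a zinc finger transcription factor related to mammalian BLIMP1 that acts in larval development. SIN-3 is the scaffold of a histone deacetylase complex, JMJD-2 is a histone lysine demethylase, and ZFP-1 is a PHD and zinc finger protein related to mammalian AF10. SCC-1 is the kleisin subunit that closes the cohesin ring, and TOP-2 is a type II topoisomerase, which passes one DNA duplex through another. The X Chromosome of C. elegans is the target of dosage compensation, in which a condensin-containing complex lowers expression from both X Chromosomes of hermaphrodites, and it is poor in genes expressed in the germline.

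To describe what makes up the X sites, the proteins in each interval were counted. Of the 910 X intervals, 730 held 1 protein, 129 held 2, 33 held 3, 15 held 4 and 3 held 5, and none held all 6. Together the 180 intervals with 2 or more proteins made up 19.8% of X (95% Clopper-Pearson interval 17.2% to 22.5%), compared with 21.2% of autosomal intervals, where single autosomes ranged from 19.2% on V to 22.2% on II. This difference did not pass the test (two-sided p = 0.352 by Fisher's exact test). Without the ZFP-1 list, 14.5% of X intervals and 20.0% of autosomal intervals held 2 or more of the remaining 5 proteins (two-sided p = 0.00178 by Fisher's exact test). Of 12 alternatives, this was the one in which the share of multi-protein sites passed the test. The median width was 253 bp for X intervals with 1 protein and 309 bp for those with 2 or more.

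The most frequent kind of site on X was ZFP-1 with no other protein, at 324 intervals (35.6%, against 30.0% of autosomal intervals). BLMP-1 alone followed with 152 (16.7% against 10.3%), then TOP-2 alone with 96 (10.5% against 6.03%) and JMJD-2 alone with 69 (7.58% against 5.10%). SIN-3 alone, the second most frequent kind on the autosomes at 18.4%, made up 50 intervals or 5.49% on X, and SCC-1 alone made up 39 (4.29% against 8.93%). Among sites with more than 1 protein, the pairs of ZFP-1 with BLMP-1, SIN-3 and JMJD-2 led, with 34, 27 and 22 intervals. SCC-1 with SIN-3 and no other protein occurred at 12 X intervals (1.32%) and at 229 autosomal intervals (4.62%). In all, 37 combinations of proteins occurred on X, 13 of them once, and 40 occurred on the autosomes. Of those on X, 6 were not seen on the autosomes, and each of these 6 includes TOP-2. Among the 6, SIN-3 with TOP-2 and ZFP-1 was found at 3 X intervals and every other at 1. The interval with BLMP-1, TOP-2 and no other protein has a BLMP-1 peak wider than 1 kb. So has the one with BLMP-1, JMJD-2, TOP-2 and ZFP-1. Other combinations were seen on the autosomes and not on X, such as BLMP-1 with JMJD-2 and no other protein (7 autosomal intervals). Of the 180 multi-protein X intervals, 131 (72.8%) held ZFP-1, compared with 513 of 1052 (48.8%) on the autosomes.

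**Figure D1:**
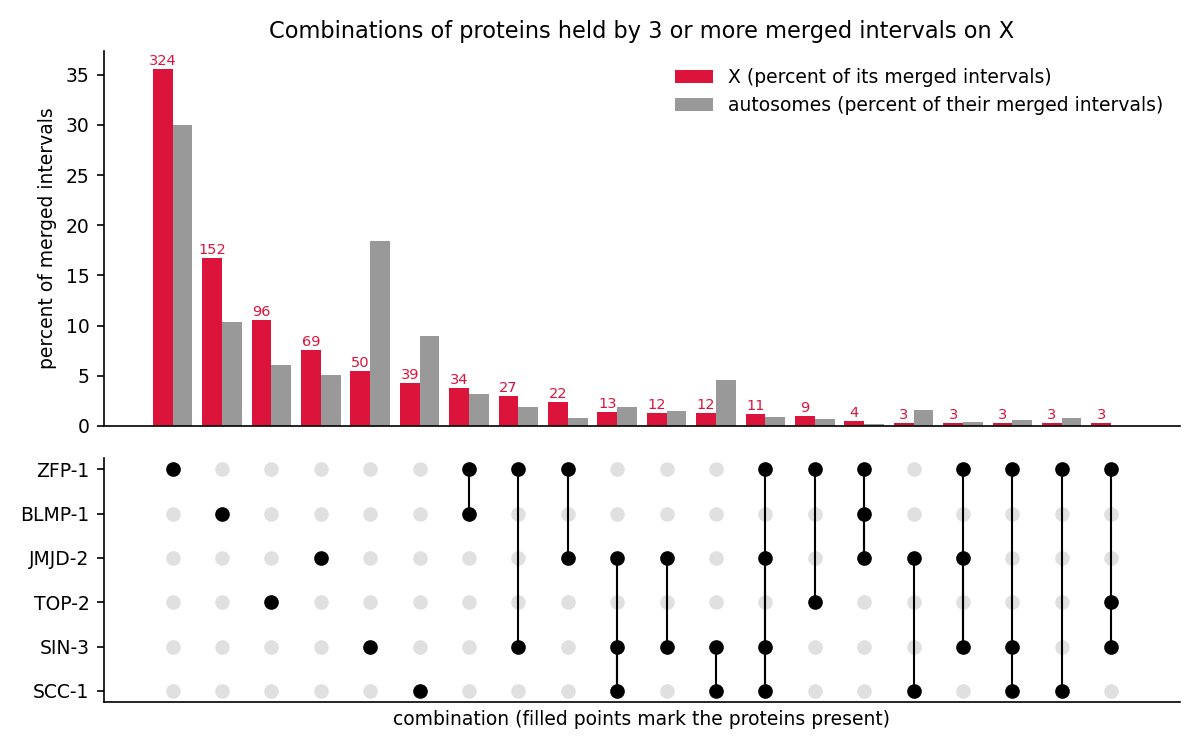
Upper axis: percent of merged intervals that hold exactly the combination marked below (red, X; grey, autosomes), with the number of X intervals above each red bar. Lower axis: filled points mark the proteins of the combination. ZFP-1 alone stands at 35.6% of X intervals, and SIN-3 alone stands at 5.49% on X against 18.4% on the autosomes.

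Which proteins were over- or underrepresented among X sites was then compared with the autosomes. SIN-3 was present at 143 X intervals (15.7%, interval 13.4% to 18.2%) and at 31.7% of autosomal intervals, an odds ratio of 0.402 (adjusted p = 1.18e-23 by a two-sided Fisher's exact test, as for all shares below, with Benjamini-Hochberg correction for 6 proteins). SCC-1 was present at 95 X intervals (10.4%) and at 20.6% of autosomal ones (odds ratio 0.450, adjusted p = 1.36e-13 by Fisher's exact test). ZFP-1 was present at 455 X intervals (50% against 40.3%, adjusted p = 1.09e-07 by Fisher's exact test). These values place the 2 proteins with fewer sites on X below, and ZFP-1 above, every single autosome: the autosomal ranges were 27.3% to 36.1% for SIN-3, 17.8% to 23.8% for SCC-1 and 38.9% to 41.1% for ZFP-1. TOP-2 was present at 117 X intervals (12.9% against 7.0%, odds ratio 1.96, adjusted p = 2.94e-08 by Fisher's exact test). BLMP-1 was present at 204 (22.4% against 15.7%, odds ratio 1.55, adjusted p = 1.52e-06 by Fisher's exact test). JMJD-2 was present at 148 (16.3% against 13.5%, odds ratio 1.25, adjusted p = 0.0285 by Fisher's exact test), and this call was lost without chromosome V (adjusted p = 0.0521 by Fisher's exact test). In the central of 3 parts of equal length of each chromosome, the JMJD-2 shares were 14.1% and 13.4% (odds ratio 1.05, adjusted p = 0.767 by Fisher's exact test).

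The tests take intervals as units and cover counting error over intervals only, and neighboring intervals may not be independent. Set as 1 chromosome against 5, no difference can reach a p below 0.167, so the range over the autosomes is given as the spread. Because these shares add up over a common set of intervals, a shortage of SIN-3 and SCC-1 raises the shares of the others, and the number of sites per Mb was therefore set beside them. X held 51.5 intervals per Mb, within the range of 41.7 on V to 78.1 on III. ZFP-1 had 25.7 intervals per Mb on X and 17.0 to 31.1 on the autosomes, and JMJD-2 had 8.37 on X and 5.07 to 10.4 on the autosomes. For these proteins X lay inside the autosomal range. TOP-2 had 6.62 intervals per Mb on X, above III, the densest autosome, at 6.38. BLMP-1 had 11.5 per Mb on X and 11.4 on I, the densest autosome. Of its peaks, 16 on X and 32 on the autosomes were wider than 1 kb. Without these peaks BLMP-1 was left at 188 intervals on X and 746 on the autosomes. Densities per chromosome were not recomputed without them, so the narrow lead of X over I holds only with the wide peaks included. SIN-3 had 8.09 per Mb on X and at least 11.4 on each autosome, and SCC-1 had 5.37 on X and at least 7.99. Intervals with neither SIN-3 nor SCC-1 numbered 40.4 per Mb on X and 25.1 to 42.2 on the autosomes.

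**Figure D2:**
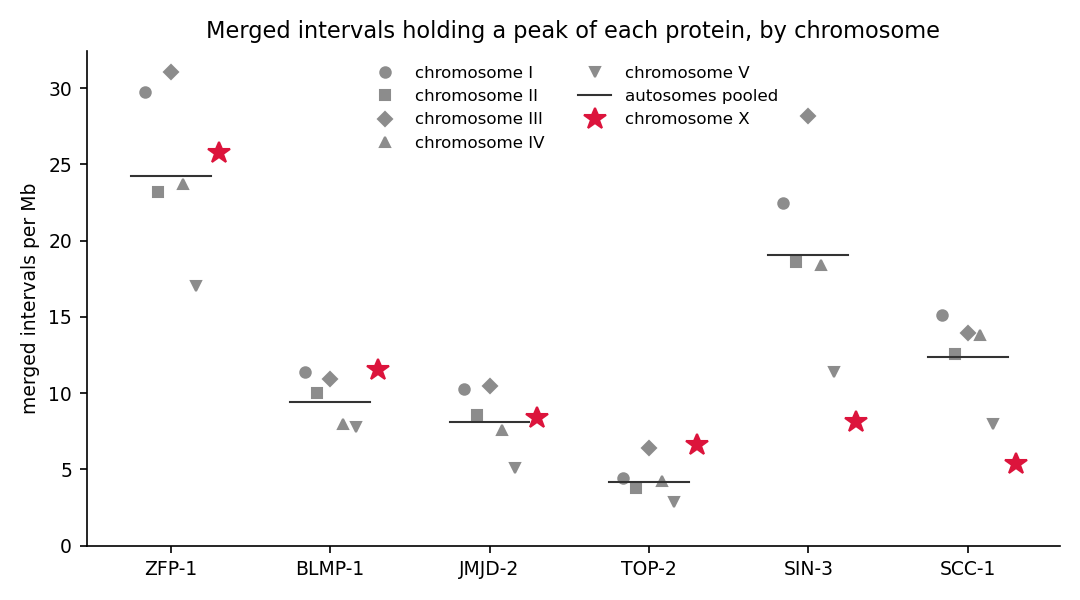
Merged intervals per Mb that hold a peak of each protein (vertical axis), for chromosome X (red stars), each autosome (grey symbols) and the pooled autosomes (lines). X lies below all 5 autosomes for SIN-3 (8.09) and SCC-1 (5.37), and among them for ZFP-1 (25.7) and JMJD-2 (8.37). It lies narrowly above all 5 for TOP-2 (6.62, against 6.38 on III) and, with BLMP-1 peaks wider than 1 kb included, for BLMP-1 (11.5, against 11.4 on I).

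To ask which proteins share sites on X, the share of each protein's intervals that also hold a second protein was compared with the autosomes for the 30 ordered pairs. The share was higher on X for 10 pairs (33.3% of those tested) and lower for 3 (10.0%) at an adjusted p below 0.05 (two-sided Fisher's exact tests with Benjamini-Hochberg correction for 30 pairs). Both orders of a pair use the same shared intervals and are not independent. All 3 lower pairs had SIN-3 or SCC-1 as second protein, whose odds ratios over all intervals were 0.402 and 0.450. In the 10 higher pairs the second protein was JMJD-2, ZFP-1, BLMP-1 or TOP-2, with 1.25, 1.48, 1.55 and 1.96 over all intervals. The pair tests did not adjust for how common the second protein was on X. In percentage points the largest difference was for SIN-3 with ZFP-1: 53 of the 143 X intervals with SIN-3 also held ZFP-1 (37.1%, interval 29.1% to 45.5%), against 217 of 1571 (13.8%) on the autosomes, where the highest was 16.5%. The odds ratio was 3.67 (adjusted p = 1.77e-09 by Fisher's exact test). Larger odds ratios, 8.10 to 15.5, were found for 4 called pairs with TOP-2, which rest on 3 to 5 shared X intervals each. Taken from the side of ZFP-1, the share was 11.6% on X and 10.9% on the autosomes and did not pass the test (adjusted p = 0.743 by Fisher's exact test). A minority of ZFP-1 sites held SIN-3 on both, while the SIN-3 sites of X more often held ZFP-1.

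Densities per Mb, which have no common denominator, set X apart for SIN-3 without ZFP-1 and not for SIN-3 with ZFP-1. SIN-3 with ZFP-1 occurred at 3.0 intervals per Mb on X, inside the autosomal range of 1.39 to 4.43. SIN-3 without ZFP-1 occurred at 5.09 per Mb, against 10.0 on V, the sparsest autosome, and 23.7 on III. The same division was seen for JMJD-2 as partner: SIN-3 with JMJD-2 occurred at 2.37 intervals per Mb on X (autosomes 1.82 to 4.43) and SIN-3 without JMJD-2 at 5.71 (at least 9.57 on each autosome). With SCC-1 as partner, X lay below all 5 autosomes both with it (2.43 against at least 2.73) and without it (5.65 against at least 8.66). SIN-3 with no other protein was at 2.83 per Mb on X, 0.255 times the density of the pooled autosomes. SCC-1 was also divided by ZFP-1, with 1.41 intervals per Mb with ZFP-1 on X (autosomes 1.15 to 2.32) and 3.96 without it (autosomes 6.84 to 13.4). For JMJD-2, X lay above the autosomes with ZFP-1 (2.71 per Mb against at most 2.54) and among them without it (5.65 against 4.11 to 8.09).

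**Figure D3:**
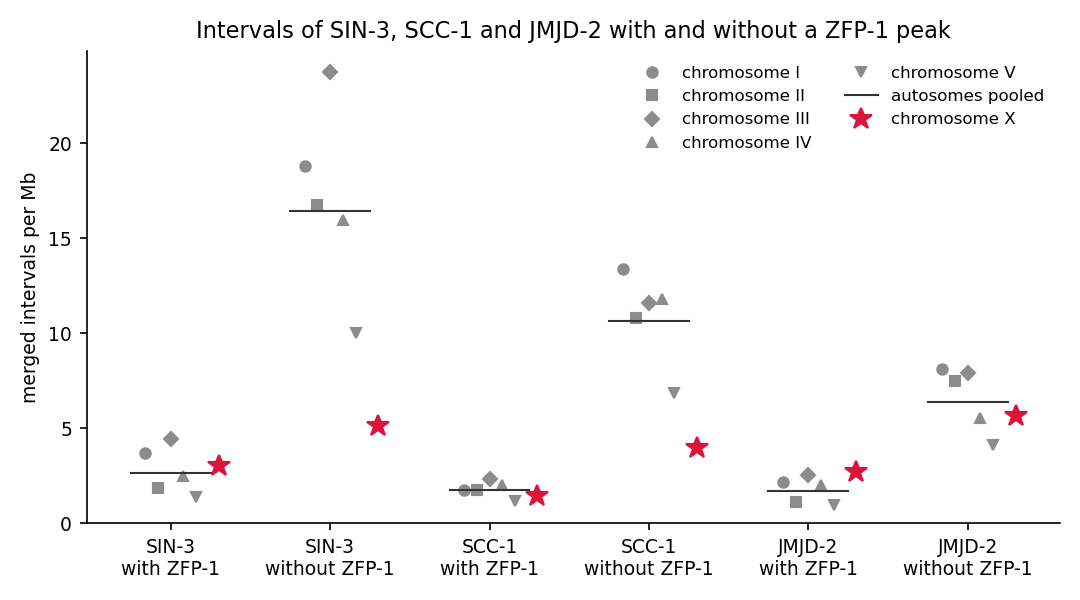
Merged intervals per Mb (vertical axis) of SIN-3, SCC-1 and JMJD-2, split by whether the interval also holds a ZFP-1 peak, for X (red stars), each autosome (grey symbols) and the pooled autosomes (lines). X lies inside the autosomal range for SIN-3 and SCC-1 with ZFP-1 (3.0 and 1.41) and below all 5 autosomes without it (5.09 and 3.96).

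Of the SCC-1 intervals on X, 25 of 95 (26.3%) held ZFP-1, against 14.1% on the autosomes (odds ratio 2.17, adjusted p = 0.0161 by Fisher's exact test). Within the outer parts of the chromosomes alone, that is the left and right of the 3 equal parts of each chromosome, the odds ratio was 2.14 and the call was lost (adjusted p = 0.0521 by Fisher's exact test). JMJD-2 held ZFP-1 at 48 of 148 X intervals (32.4% against 21.0%, adjusted p = 0.0166 by Fisher's exact test), and this call was lost without chromosome II (adjusted p = 0.0644 by Fisher's exact test). Both calls were also lost in the central part alone, where the odds ratios were 2.45 for SCC-1 and 1.73 for JMJD-2 (adjusted p = 0.525 and 0.562 by Fisher's exact test). Of the pairs with ZFP-1 as partner, SIN-3 was the one whose call held under all 11 alternatives. BLMP-1 was different, with ZFP-1 at 22.5% of its X intervals and 27.2% of its autosomal ones (adjusted p = 0.283 by Fisher's exact test).

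JMJD-2, SIN-3 and SCC-1 also shared sites with each other. JMJD-2 was present at 42 of the 143 X intervals of SIN-3 (29.4% against 16.6%, odds ratio 2.10, adjusted p = 0.00485 by Fisher's exact test). Conversely, 28.4% of JMJD-2 intervals on X held SIN-3 against 38.9% (adjusted p = 0.0457 by Fisher's exact test), a call lost under 6 of 12 alternatives, for example without chromosome IV (adjusted p = 0.120 by Fisher's exact test). JMJD-2 intervals on X held SCC-1 in 23.6% against 38.5% (odds ratio 0.495, adjusted p = 0.00619 by Fisher's exact test). SCC-1 intervals held JMJD-2 in 36.8% on X against 25.2% (adjusted p = 0.0457 by Fisher's exact test), a call lost under 7 of 12 alternatives, such as peaks of 200 bp (adjusted p = 0.0626 by Fisher's exact test). As a share of SIN-3 and of SCC-1 intervals, JMJD-2 was thus higher on X, and as shares of JMJD-2 intervals both were lower. Shared sites were not denser on X. Intervals with both SCC-1 and JMJD-2 numbered 1.98 per Mb on X, below every autosome (lowest 2.01 on V). Those with both SIN-3 and JMJD-2 numbered 2.37 per Mb, inside the autosomal range of 1.82 to 4.43. Over all intervals SIN-3 (15.7% against 31.7%) and SCC-1 (10.4% against 20.6%) were also less frequent on X. JMJD-2 was more frequent over all intervals (16.3% against 13.5%). Whether sharing differed beyond these overall shares was not tested. In the central part alone, where fewer intervals were tested, none of the 4 pair shares passed the test. For SCC-1 and SIN-3 themselves no difference was detected: SIN-3 was present at 45.3% of SCC-1 intervals on X (interval 35.0% to 55.8%) and 42.6% on the autosomes (adjusted p = 0.767 by Fisher's exact test).

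SIN-3, JMJD-2 and SCC-1 were present together at 27 X intervals, 14 of which (51.9%, interval 31.9% to 71.3%) also held ZFP-1, compared with 56 of 164 (34.1%) on the autosomes. Where these proteins shared an X interval their peaks lay almost on top of each other. The median distance between peak midpoints was 8.0 bp between SCC-1 and SIN-3, 11.2 bp between SIN-3 and JMJD-2, and 12 bp between JMJD-2 and SCC-1. It was 26.0 bp for SIN-3 and ZFP-1, and 52.8 bp for BLMP-1 and ZFP-1. On the autosomes the medians, in the same order, were 11, 17.75, 9, 25.5 and 46.5 bp, so such distances were not particular to X. Intervals were merged from overlapping peaks, so short distances are partly built in.

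TOP-2 was the most solitary protein on X. Of its 117 X intervals, 96 (82.1%, interval 73.9% to 88.5%) held no other protein, just below the autosomal range of 83.3% to 91.4%. BLMP-1 was alone at 74.5% of its X intervals and ZFP-1 at 71.2%, while JMJD-2 (46.6%), SCC-1 (41.1%) and SIN-3 (35.0%) more often had company. SIN-3 was alone at 54.6% to 62.6% of its intervals on the autosomes, so its share of lone sites on X lay below all 5. The lone share on X was also just below all 5 for ZFP-1 (autosomes 71.7% to 77.1%) and inside the range for SCC-1 (33.3% to 47.7%). For JMJD-2 (32.6% to 44.5%) and BLMP-1 (58.3% to 73.6%) it lay above all 5. When TOP-2 did share a site on X it was most often with ZFP-1, at 16 intervals (13.7% against 10.4%, adjusted p = 0.430 by Fisher's exact test). TOP-2 was present at 5 of 143 SIN-3 intervals on X and at 7 of 1571 on the autosomes (adjusted p = 0.0139 by Fisher's exact test), a call lost within the outer parts alone, where 3 of 111 held it (adjusted p = 0.149 by Fisher's exact test). It was present at 3 of 95 SCC-1 intervals on X and at 3 of 1020 on the autosomes (adjusted p = 0.0331 by Fisher's exact test), a call lost without chromosome II (adjusted p = 0.0504 by Fisher's exact test). These calls rest on 3 to 5 X intervals.

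BLMP-1 sites on X less often held SIN-3, at 7 of 204 intervals (3.43%) against 9.51% on the autosomes (odds ratio 0.338, adjusted p = 0.0166 by Fisher's exact test), a call lost in the central part alone (3 of 61, adjusted p = 0.892 by Fisher's exact test). BLMP-1 with SCC-1, at 6 of 204 X intervals (2.94%) against 7.33%, just missed the threshold (odds ratio 0.383, adjusted p = 0.0506 by Fisher's exact test) and passed it under 6 of 11 alternatives (lowest adjusted p = 0.0224 by Fisher's exact test). Over all intervals, SIN-3 and SCC-1 were also less frequent on X, with odds ratios of 0.402 and 0.450. Whether BLMP-1 intervals differed from other intervals in this was not tested. BLMP-1 shared 4 X intervals and 1 autosomal interval with TOP-2 (adjusted p = 0.0285 for the BLMP-1 share and 0.0426 for the TOP-2 share by Fisher's exact test). The midpoints in these 4 lay a median of 430 bp apart, and without BLMP-1 peaks wider than 1 kb 2 were left (adjusted p = 0.197 and 0.263 by Fisher's exact test). All 16 X intervals wider than 1 kb held a BLMP-1 peak that exceeded 1 kb, whereas no peak of another protein on X was wider than 543 bp. The remaining pair past the test was ZFP-1 with JMJD-2, at 10.5% of ZFP-1 intervals against 7.0% (adjusted p = 0.0426 by Fisher's exact test), which was lost under 5 of 11 alternatives, such as leaving out chromosome II (adjusted p = 0.0888 by Fisher's exact test).

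**Figure D4:**
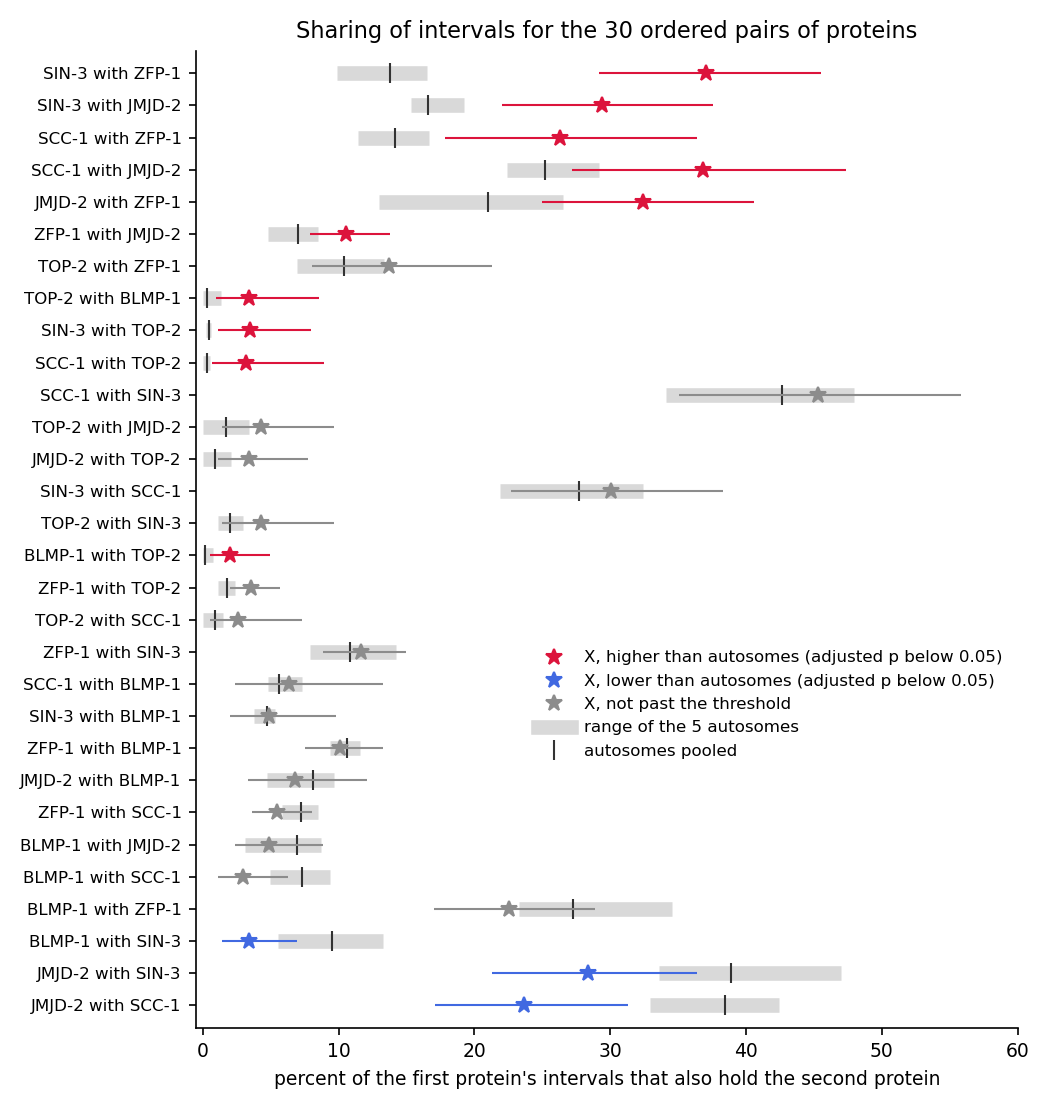
Percent of the intervals of the first protein that also hold the second (horizontal axis) for 30 ordered pairs, ordered by the difference between X and autosomes. Stars with lines are X with 95% Clopper-Pearson intervals, ticks are the pooled autosomes and grey bars the range over 5 autosomes. SIN-3 with ZFP-1 shows the largest difference in percentage points (37.1% against 13.8%), and JMJD-2 with SCC-1 the largest in the other direction (23.6% against 38.5%).

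Most X intervals of a protein without a given second protein lay more than 1 kb from the nearest interval of that second protein. Over all X intervals, 120 of 909 neighboring pairs (13.2%) lay less than 1 kb apart (autosomes 12.7% to 16.8%). That is a share of neighboring pairs, whereas the shares below are of intervals. Of the 52 SCC-1 intervals on X without SIN-3, 8 (15.4%) lay within 1 kb of a SIN-3 interval, and of the 101 TOP-2 intervals without ZFP-1, 11 (10.9%) lay within 1 kb of a ZFP-1 interval. In the other pairs this share was at most 8.0%. The median distance to the nearest interval was 41.8 kb from SCC-1 to SIN-3 and 10.5 kb from TOP-2 to ZFP-1. These counts and distances were not compared with the autosomes or with the spacing of all intervals. The distance between midpoints of neighboring X intervals had a median of 10.8 kb and a lower quartile of 3.09 kb, and the autosomal medians ran from 7.56 kb on III to 12.6 kb on V.

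The positions of the sites along the chromosome were then examined, because autosomes of C. elegans have gene-dense centers and arms rich in repeats and H3K9 methylation, whereas X is more even. X sites were shifted toward the ends: 661 (72.6%, interval 69.6% to 75.5%) lay in the outer parts, compared with 63.5% of autosomal intervals, where the highest was 66.7% on III (odds ratio 1.52, two-sided p = 9.34e-08 by Fisher's exact test). The left, central and right parts of X held 58.5, 42.2 and 53.6 intervals per Mb. The center of X was thus sparser than both ends, and sparser than the center of any autosome (48.1 on V to 82.8 on I). On none of the 5 autosomes was the central part below both outer parts.

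**Figure D5:**
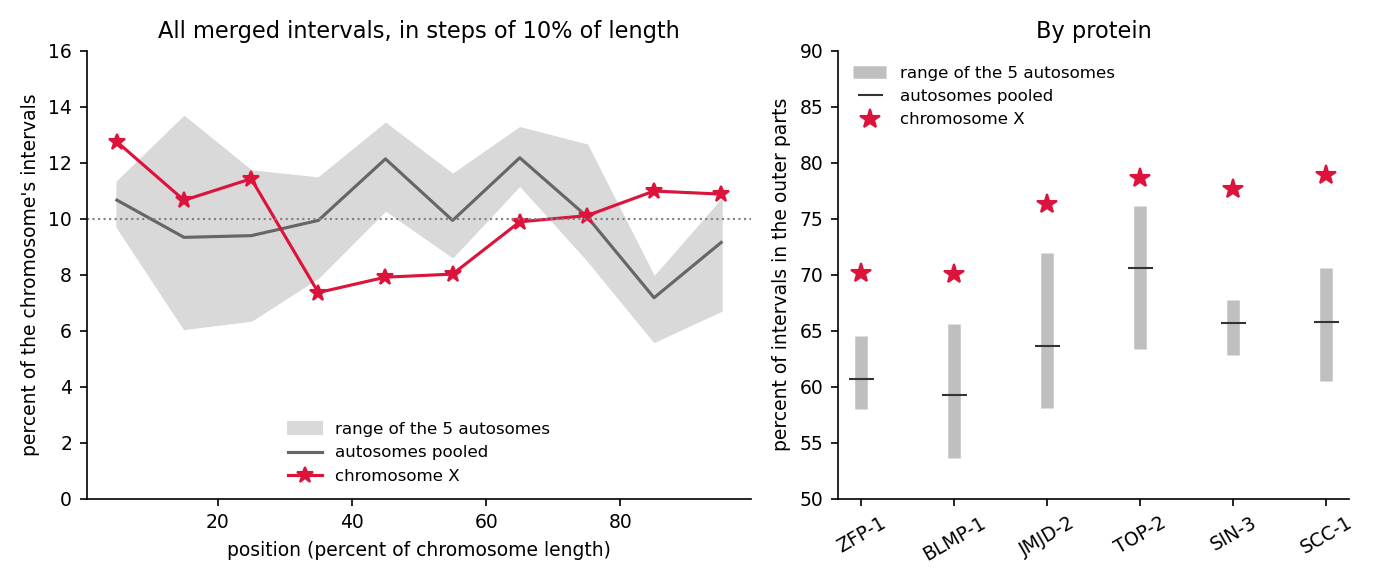
Left: percent of a chromosome's intervals in each step of 10% of its length, for X (red), the pooled autosomes (line) and the range over 5 autosomes (grey); an even spread would be at the dotted line. Right: percent of each protein's intervals in the outer parts (axis from 50% to 90%). X falls to between 7.36% and 8.02% per step from 30% to 60% of its length, and the outer share on X lies above all 5 autosomes for each of the 6 proteins.

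The shift was seen for each protein. The share in the outer parts of X ran from 70.1% for BLMP-1 and ZFP-1 through 76.4% for JMJD-2, 77.6% for SIN-3 and 78.6% for TOP-2 to 78.9% for SCC-1, and exceeded that of the pooled autosomes by 8.03 (TOP-2) to 13.2 (SCC-1) percentage points. Within X, intervals with and without a given protein did not differ in this share for any of the 6 proteins past the test (adjusted p = 0.271 to 0.373 by Fisher's exact test, and 0 had an unadjusted p under 0.05). The interval for SCC-1 (69.4% to 86.6%) shows how wide the uncertainty is with 95 sites. Without the BLMP-1 list, X intervals with ZFP-1 lay less often in the outer parts than those without it (odds ratio 0.629, adjusted p = 0.0365 by Fisher's exact test). SCC-1 was the sparsest in the center, with 3.39 intervals per Mb against 7.46 in the left and 5.26 in the right part, and ZFP-1 varied the least, with 23.1 in the center against 26.0 and 28.2. The difference in SIN-3 was also present in the outer parts and in the central part, each taken alone. Position inside these parts was not matched. Within the outer parts only, SIN-3 was present at 16.8% of X and 32.7% of autosomal intervals, and within the central part at 12.9% and 29.8% (adjusted p = 1.48e-16 and 2.45e-08 by Fisher's exact test).

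Single regions show the extremes. In steps of 100 kb, the 1-Mb window of X with the most intervals was chrX:1300001-2300000 (ce10) with 72, tied with 1 other window, and the one with the fewest was chrX:6300001-7300000 with 25, around a mean of 51.5. JMJD-2 was also densest in chrX:1300001-2300000, with 21 intervals. SCC-1 (15) and SIN-3 (17) were both densest at the very start of the chromosome, chrX:1-1000000, and TOP-2 at chrX:2100001-3100000 with 16. BLMP-1 was densest at chrX:4500001-5500000 with 22, and ZFP-1 in the right part at chrX:13900001-14900000 with 40, tied with 1 other window. Windows were picked as extremes, so they differ from the mean by construction. The 3 longest stretches without any site were chrX:3155578-3308431 (153 kb), chrX:12235628-12362914 (127 kb) and chrX:7825654-7951520 (126 kb). The first and the last interval of X, chrX:1-336 and chrX:17685862-17686238, each held BLMP-1 alone, and so did the widest, chrX:109491-114316, with 4826 bp.

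Sites with the most proteins were spread along X. Of the 18 intervals with 4 or more proteins, all held ZFP-1, 17 held JMJD-2, 17 SCC-1, 15 SIN-3, 5 BLMP-1 and 3 TOP-2, and 14 lay in the outer parts. Intervals with 4 or more proteins made up 1.98% of X and 1.63% of autosomal intervals, and 72.6% of all X intervals lay in the outer parts. On the autosomes 67 of 81 such intervals (82.7%) held ZFP-1. The 3 intervals with 5 proteins were chrX:16681862-16682303, which lacked BLMP-1, and chrX:2242841-2243123 and chrX:7068412-7068663, which lacked TOP-2. In the last of these 5 peaks had midpoints within 20.5 bp and 200 bp in common, although it lies in the window with the fewest sites. In the interval with TOP-2 the midpoints spread over 162 bp.

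JMJD-2, SCC-1, SIN-3 and ZFP-1 made up 11 of the 15 intervals with 4 proteins. The longest of these were chrX:13700538-13700991, chrX:2996862-2997255, chrX:8036153-8036516, chrX:6296330-6296681, chrX:11937310-11937660 and chrX:5429386-5429692, in each of which all 4 peaks shared between 173 and 251 bp. At chrX:768075-768468 BLMP-1 took the place of JMJD-2. A pair of longer intervals, chrX:15274786-15276263 (BLMP-1, JMJD-2, TOP-2 and ZFP-1) and chrX:16929439-16930827 (BLMP-1, JMJD-2, SCC-1 and ZFP-1), were joined through BLMP-1 peaks wider than 1 kb and had no base common to all of their peaks. Peak sequences and genes near the intervals were not analysed here.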

How the data were processed

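ChIP-seq of 6 proteins in wild-type L3 larvae was analysed (12 samples, 2 replicates per protein). The authors aligned reads to ce10, called peaks per replicate (MACS2 for BLMP-1, YAPC for the others, per the methods) and kept those passing IDR between replicates (P threshold 0.01). BWA and MACS2 are the tools in the submitters' processing notes, and no version is named there. The deposited lists hold peak positions and no counts or scores, and the unit used from them is another one, the position of each peak in bp. Peaks of all lists were merged where they shared at least 1 bp. A chromosome ended at the last peak in any list.

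Shares were compared between X and the pooled autosomes by two-sided Fisher's exact tests with Benjamini-Hochberg adjustment within each family (6 proteins, 30 ordered pairs), with a threshold of 0.05, and intervals are Clopper-Pearson 95% intervals. Named regions followed a rule: up to 12 intervals with 4 or more proteins, taken by number of proteins and then length, extreme 1-Mb windows, the 3 longest gaps, and the first, last and widest interval. The members and lists were chosen with earlier results of these data known. Alternatives were a merging distance of 500 bp, peaks of 200 bp, leaving out BLMP-1 peaks over 1 kb, the BLMP-1 or ZFP-1 list or each autosome, and outer parts of 25% of the length. Comparisons within outer and central parts were added after seeing the data. The procedures were tested on simulated independent counts, which do not cover dependence between neighboring intervals or the spread between chromosomes. Python 3.11.15, numpy 2.4.6, scipy 1.17.1 and matplotlib 3.10.9 were used.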

Additional observations from a re-analysis of the deposited data

How the results depend on the processing

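Odds ratios are X against autosomes and all p-values are from Fisher's exact test with adjustment as above. Of 457 single tests under the alternatives, 405 stayed on their side of the threshold, 40 lost a call, 12 gained one and 0 called results changed direction. Another 10 gave no finite odds ratio, because no shared interval was found on X, the autosomes or both. The proteins SIN-3, SCC-1, ZFP-1, TOP-2 and BLMP-1, the outer parts of all intervals, and the pair SIN-3 with ZFP-1 (odds ratio 2.67 to 5.97) passed under every alternative run for them. For JMJD-2 the odds ratio was 1.22 to 1.27 when an autosome was left out, with the call lost without V, and 1.05 in the central part (adjusted p = 0.767 by Fisher's exact test). The share of sites with 2 or more proteins passed without the ZFP-1 list (odds ratio 0.680). Within X, 1 of 5 proteins, ZFP-1, passed for the outer parts without the BLMP-1 list.

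The number of ordered pairs past the test was 13, and 9 to 16 over the settings listed in the methods, 9 to 12 when an autosome was left out. It was 6 in the outer parts and 2 in the central part, where fewer intervals were tested. In the central part the odds ratios were 1.74 for SIN-3 with JMJD-2, 0.403 for JMJD-2 with SCC-1, 1.73 for JMJD-2 with ZFP-1 and 2.45 for SCC-1 with ZFP-1, none of them past the threshold. In the outer parts SCC-1 with ZFP-1 was at 2.14. With an autosome left out, JMJD-2 with ZFP-1 ranged from 1.62 to 1.97.

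No paired analysis was possible because each protein has 1 list that combines both replicates, and for the same reason leaving out 1 replicate was not run. Depth is unknown, and precision is limited by the number of intervals.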
